A study of Mus musculus with 6 samples.

Results

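The genes described here are the basic leucine zipper (bZIP) transcription factors of the mouse other than the BATF family, measured in regulatory T (Treg) cells with and without Batf. They are 38 named genes, taken as every probe set whose annotation names exactly 1 gene and that gene is on the list. This gave 84 probe sets for 37 of the 38 genes, out of 18193 genes on the array, while Atf1 had no probe set of its own. The rule that picks them uses names and no measured value. Treg cells were compared between Batf-/- mice and Batf+/+ mice, with 3 arrays for each genotype. Both groups were C57BL/6 mice that carried a human CD2 reporter tied to Foxp3, the transcription factor that defines Treg cells, and the CD4+ human CD2+ fraction of lymph node and spleen was analysed without culture or treatment. The labels give no age and no sex, call the populations triplicates, and do not say whether each triplicate came from 1 mouse or from a pool, so the p-values rest on a spread that may hold more of the procedure than of the animals. The gate selects cells positive for the Foxp3 reporter in both groups, from which equal Foxp3 levels do not follow. The Batf deletion is not limited to Treg cells by anything in the labels.

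A bZIP factor binds DNA as a dimer. The leucine zipper holds the pair together and the adjoining basic region reads the DNA, so which partners are present decides which sites can be bound. Batf lacks an activation domain of its own and works as a dimer with Jun proteins, in competition with Fos proteins for the same partners, and in T cells it binds composite sites together with Irf4 or Irf8. The family also includes the CREB and ATF factors that respond to cyclic AMP and to stress, the C/EBP factors of myeloid cells, the Maf and cap-n-collar factors of the antioxidant response, the Bach repressors that restrain effector differentiation of lymphocytes, and Nfil3 with its relatives of the circadian clock.

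All values are log2 levels relative to the middle Batf+/+ array of each probe set, averaged over a gene's probe sets. A level of 0 is therefore that middle array and says nothing of how abundant a transcript was, and whether a member is expressed at all in these cells cannot be read from the values. Batf itself had levels of -3.13, -3.16 and -2.37 on the Batf-/- arrays, against -0.13, 0.00 and 0.14 on the Batf+/+ arrays, which follows the labels on all 6 arrays. Array medians over all probe sets lay between -0.02 and 0.02 on Batf-/- arrays. They were 0.00 on Batf+/+ arrays, where the centring brings them to 0 and they are no check. Of 8 markers of Treg and CD4+ T cells, which included Foxp3, Il2ra and Ctla4, 0 passed the test in either direction and 3 had an unadjusted p below 0.05, and their summed level ranged from -1.28 to -0.85 over Batf-/- arrays and from -0.63 to 0.16 over Batf+/+ arrays. The part of these markers in the results below was not tested, and in bulk samples fewer cells of a type and less RNA per cell cannot be told apart. Of 42 measured markers of 9 other cell types, 0 passed either, by limma, and their defining genes cannot be called absent from centred values.

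None of the bZIP factors outside the BATF family passed the test between genotypes. Of 37 measured members, 0 were called lower and 0 higher in Batf-/- Treg cells (limma with Benjamini-Hochberg adjustment over 18193 genes, called at an adjusted p below 0.05), where 0.830% of all genes were called lower, 0.313% higher and 1.14% in all. At an unadjusted p below 0.05 there were 6 members, 4 lower and 2 higher, which is 16.2% of the members against 7.69% of all genes (4.44% lower and 3.25% higher). These were Atf6, Cebpa, Nfil3 and Dbp below and Jdp2 and Bach2 above. Differences lay below 0 in 21 members, where they did in 48.2% of all genes. The median difference of the members, Batf-/- minus Batf+/+, was -0.02 on the log2 scale, beside 0.00 for all genes. Leaving out Batf-/- array 1 gave a median of -0.09, and leaving out Batf+/+ array 3 gave -0.06. The members ranged from -0.94 for Nfil3 to 0.48 for Fosb, and 31 of the 37 lay within 0.3 of 0. The 95% interval of the difference stayed within a 2-fold change either way for 33 members (99.0% of all genes), and within 1.5-fold for 27 (95.3%), so for these a larger change lay outside the interval. For Fosb, Atf3, Maff and Nfil3 the interval reached past 2-fold. With the array number as a replicate block, described below, it stayed within 2-fold for 34 members, Maff among them (-0.36 to 0.56), and reached past it for Fosb, Atf3 and Nfil3.

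**Figure D1:**
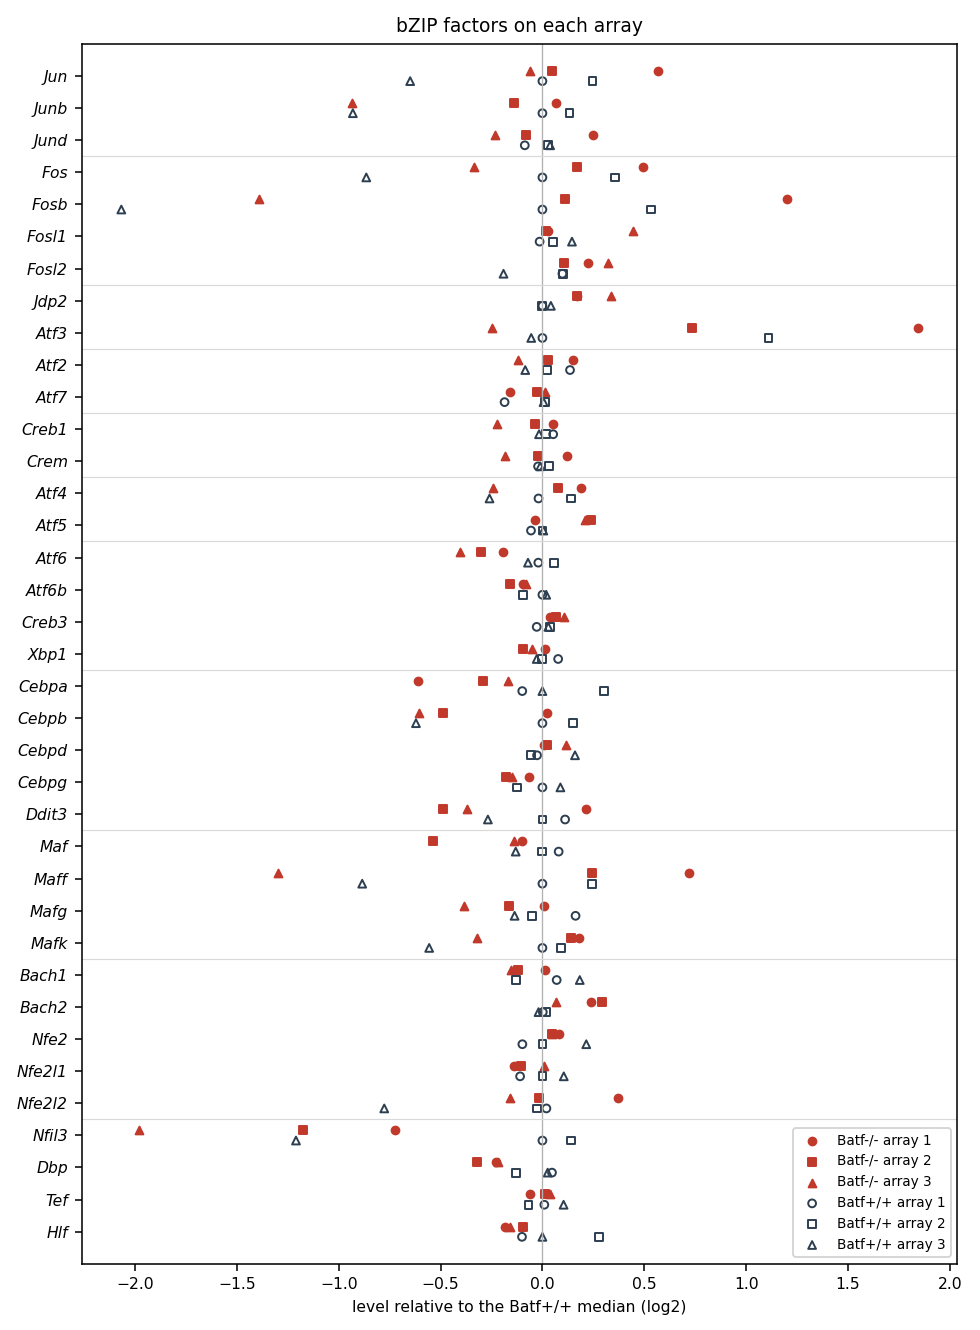
Each of the 37 measured bZIP factors (rows, grouped by subfamily) on the 6 arrays, as the log2 level relative to the Batf+/+ median on the horizontal axis. Filled red symbols are Batf-/- arrays and open symbols Batf+/+ arrays, with a circle, square or triangle for arrays 1, 2 and 3. Triangles of both genotypes lie far to the left for Fosb, Maff, Nfil3 and Junb.

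Arrays with the same number in the sample titles had correlated values over all genes, though not in each gene. Deviations from the group means correlated between same-numbered arrays across all 18193 genes, at 0.407, 0.154 and 0.413 for numbers 1, 2 and 3, and a fit with the number as a replicate block was therefore set beside the plain fit. With that block 1 member was called lower, Nfil3, and 0 higher, where the block called 1.11% of all genes lower, 0.500% higher and 1.61% in all. At an unadjusted p below 0.05 the block gave 9 members, 24.3% of them against 12.5% of all genes. The labels do not say what a number stands for. Correlations between arrays of different numbers were not computed. These values therefore do not show that the numbers match the arrays better than another pairing would. The block was also chosen from the same values that it then tests. Not every gene followed the numbers, as Hspa1a was highest on Batf-/- array 1 and Batf+/+ array 2.

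Nfil3, a repressor that is needed for natural killer cells and that opposes the PAR bZIP activators at their shared sites, had the largest difference of the family. Its levels were -0.72, -1.17 and -1.98 on Batf-/- arrays 1, 2 and 3, against 0.00, 0.14 and -1.21 on Batf+/+ arrays 1, 2 and 3. Every Batf-/- array was below the Batf+/+ array of the same number, but the groups overlapped, since Batf+/+ array 3 lay below Batf-/- arrays 1 and 2. The difference was -0.94 ± 0.39 (SE, n = 3 arrays per genotype), a 1.91-fold lower level, with a limma adjusted p = 0.579. Within numbers 1, 2 and 3 the differences were -0.72, -1.31 and -0.77. With the replicate block the standard error was 0.12, the 95% interval -1.22 to -0.65 and the adjusted p = 0.0193. Further blocked fits, chosen after seeing the data, left out both arrays of a number. Nfil3 was called without numbers 1 (-1.04, adjusted p = 0.0220), 2 (-0.75, adjusted p = 0.0296) or 3 (-1.02, adjusted p = 0.00722). Each fit then rested on 2 pairs and 1 residual degree of freedom before limma's moderation. These fits reuse the same arrays and give no independent support for the call. Without the block the Nfil3 difference moved to -0.62 after quantile normalization of the centred values. It moved to -0.59 (adjusted p = 0.866) without Batf-/- array 3 and to -1.22 (adjusted p = 0.291) without Batf-/- array 1. Without Batf+/+ array 3 it was -1.36 (also uncalled). The Nfil3 values rest on 1 probe set.

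The PAR factors, activators that drive clock-controlled genes through sites that Nfil3 also binds, all had differences below 0. Dbp had levels of -0.23, -0.32 and -0.22 on the Batf-/- arrays, against 0.05, -0.13 and 0.03 on the Batf+/+ arrays. These groups did not overlap, in either of its 2 probe sets, and the difference was -0.24 ± 0.08 (SE, adjusted p = 0.393). Hlf had -0.18, -0.10 and -0.16 in Batf-/- cells, against -0.10, 0.28 and 0.00 in Batf+/+ cells, where Batf+/+ array 2 stood highest. Tef had the smallest difference of the 3, at -0.02 ± 0.08, with a 95% interval of -0.20 to 0.16. Of 13 clock genes measured beside them, 0 passed the test, 2 had an unadjusted p below 0.05, and their median difference was -0.03. Bhlhe40, a clock repressor also induced by T cell activation, had -1.26, -1.28 and -1.61 in Batf-/- cells, against 0.00, 0.09 and -1.42 in Batf+/+ cells. Its values resembled those of Nfil3 in that Batf+/+ array 3 was low. The Bhlhe40 difference of -0.94 (adjusted p = 0.455) became -1.43 (adjusted p = 0.00309) without Batf+/+ array 3. Within numbers 1, 2 and 3 its differences were -1.26, -1.37 and -0.19. Unlike Nfil3, Bhlhe40 did not pass with the replicate block (limma adjusted p = 0.126). Arntl, the other clock gene with an unadjusted p below 0.05, differed by -0.31 ± 0.08 without overlap (adjusted p = 0.205).

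**Figure D2:**
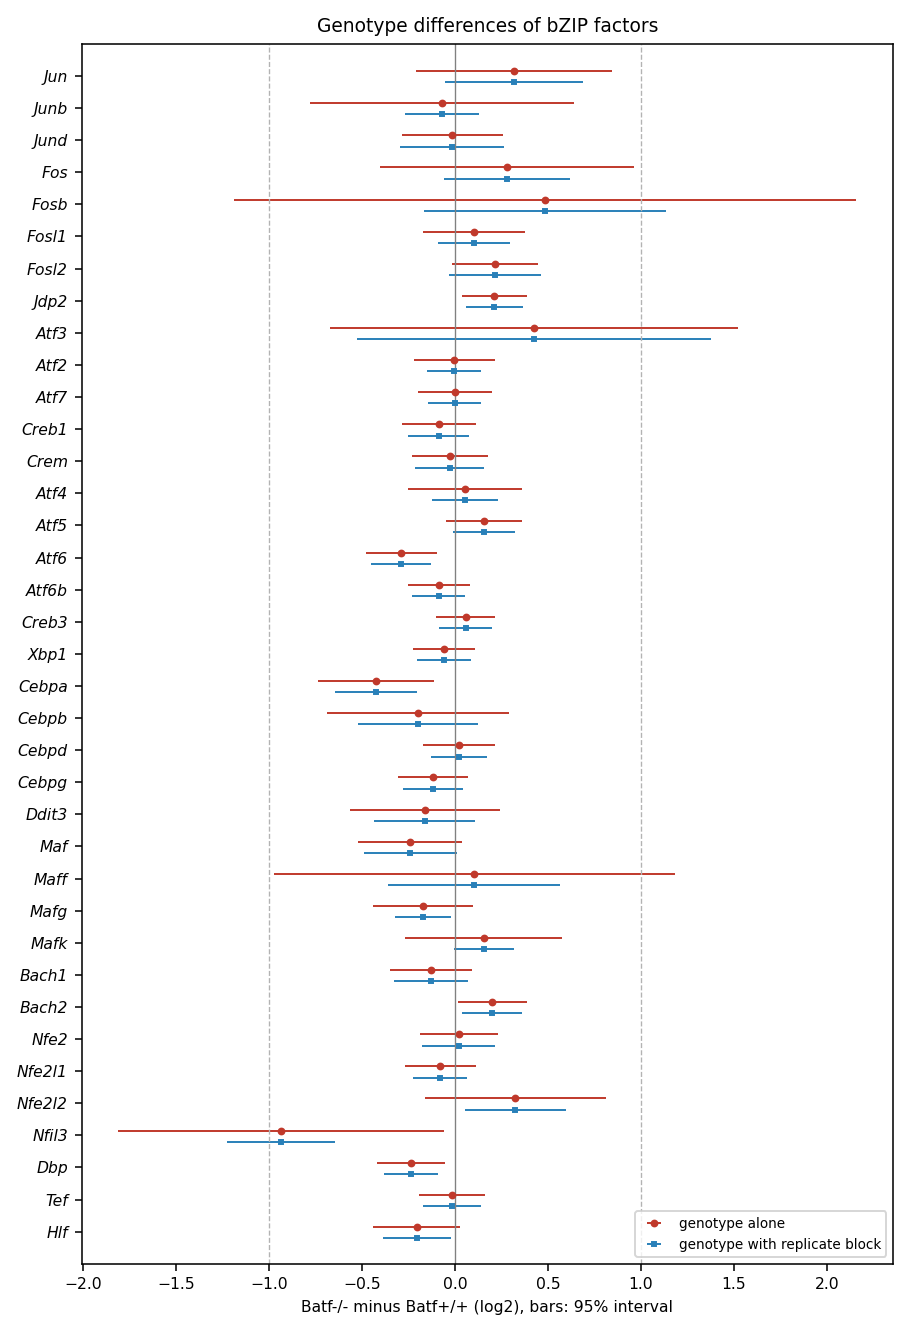
Batf-/- minus Batf+/+ difference (log2) of each measured member with its 95% interval, from genotype alone (red circles) and with the array number as a replicate block (blue squares). Dashed lines mark a 2-fold change either way. The block narrows the interval most for Fosb, Maff, Junb and Nfil3, and Nfil3 lies at -1.22 to -0.65 with it.

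Jun proteins, the dimer partners of Batf, were near 0 or spread widely. Jun had levels of 0.57, 0.05 and -0.06 in Batf-/- cells, against 0.00, 0.25 and -0.65 in Batf+/+ cells, with a difference of 0.32 ± 0.23 (SE, adjusted p = 0.932) that became 0.06 without Batf+/+ array 3. Junb, which pairs with Batf in T cells, had 0.07, -0.14 and -0.94 in Batf-/- cells, against 0.00, 0.13 and -0.93 in Batf+/+ cells. Both genotypes were low by about the same amount on arrays numbered 3, and within numbers the differences of Junb were 0.07, -0.27 and -0.01. Its 95% interval was -0.78 to 0.64, and -0.27 to 0.13 with the replicate block (adjusted p = 0.807 with the block). Jund, the Jun protein with the steadiest expression in many cells, had 0.25, -0.08 and -0.23 in Batf-/- cells, against -0.09, 0.03 and 0.04 in Batf+/+ cells, and a difference of -0.02 ± 0.12.

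Fos proteins, which compete with Batf for Jun, had 4 of 4 differences above 0 and 0 of 4 past the test. Fos had levels of 0.49, 0.17 and -0.34 in Batf-/- cells, against 0.00, 0.36 and -0.86 in Batf+/+ cells, and a difference of 0.28 ± 0.30 (SE, adjusted p = 0.998). Fosb, an immediate early gene like Fos, had 1.20, 0.11 and -1.39 in Batf-/- cells, against 0.00, 0.53 and -2.07 in Batf+/+ cells. Its difference of 0.48 ± 0.74 had the widest interval of the family, -1.19 to 2.16, and became -0.29 without Batf+/+ array 3. The same omission took Fos to -0.07, so the sign of neither is fixed by these arrays. Fosl1 and Fosl2, the Fra proteins that lack the activation domains of Fos, differed by 0.10 ± 0.12 and 0.22 ± 0.10. Fosl2 was higher on each Batf-/- array, at 0.22, 0.11 and 0.32, against 0.10, 0.10 and -0.19 in Batf+/+ cells, but the gap within number 2 was 0.01.

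Jdp2, a repressor that like Batf dimerises with Jun and lacks an activation domain, was 1 of 4 members that were higher without overlap. It had levels of 0.17, 0.17 and 0.33 in Batf-/- cells, against 0.00, 0.00 and 0.04 in Batf+/+ cells. The difference was 0.21 ± 0.08 (SE, 95% interval 0.03 to 0.39, limma adjusted p = 0.466). Its probe sets gave 0.14 and 0.29, and only in the second did the groups not overlap. Without probe sets of shared sequence its difference was 0.14 (limma adjusted p = 0.947). Atf3, a stress-induced relative of Jdp2, had 1.84, 0.73 and -0.25 in Batf-/- cells, against 0.00, 1.11 and -0.05 in Batf+/+ cells, with a difference of 0.43 ± 0.48 (adjusted p = 0.999). The highest arrays of Atf3, Batf-/- array 1 and Batf+/+ array 2, were also those of the heat shock genes Hspa1a and Hspa1b, named here after their values were seen. The match was partial, since Atf3 was also at 0.73 on Batf-/- array 2, where both heat shock genes were below 0. Jun, Fos and Fosb too were highest on Batf-/- array 1 and Batf+/+ array 2. Hspa1a had 4.87, -0.45 and -0.91 in Batf-/- cells, against 0.00, 4.51 and -1.37 in Batf+/+ cells, and its near-identical neighbour Hspa1b had 4.0, -0.47 and -1.47 in Batf-/- cells, against 0.00, 3.93 and -1.75 in Batf+/+ cells. The part of a heat shock response in the Atf3 values was not tested.

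Groups that did not overlap were found in 7 of the 37 members, 18.9%, against 12.0% of all genes (6.55% lower and 5.50% higher). The 3 lower ones were Atf6, Cebpa and Dbp, and the 4 higher ones were Fosl2, Jdp2, Creb3 and Bach2. Creb3 was among them only narrowly, with 0.04, 0.07 and 0.10 in Batf-/- cells, against -0.03, 0.04 and 0.03 in Batf+/+ cells and a difference of 0.06 ± 0.07. By single probe set, the groups did not overlap in 1 of 3 for Bach2 and 1 of 2 for Jdp2. For Creb3 it was 1 of 4, and for Fosl2 0 of 2. A member had the same sign within all 3 numbers in 19 cases, 51.4% against 34.3% of all genes, with 12 of them lower (32.4% against 17.0%) and 7 higher (18.9% against 17.3%).

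Factors held at the endoplasmic reticulum or induced from it included the member with the smallest unadjusted p. Atf6, which is cleaved and sent to the nucleus when unfolded proteins build up, had levels of -0.19, -0.30 and -0.41 in Batf-/- cells, against -0.02, 0.06 and -0.07 in Batf+/+ cells. Each of its Batf-/- arrays was lower than all Batf+/+ arrays, and the difference was -0.29 ± 0.08 (SE, 95% interval -0.48 to -0.10, limma adjusted p = 0.258, and 0.132 with the block). All 3 of its probe sets were below 0, at -0.43, -0.28 and -0.16, and the groups did not overlap in 2 of them. The median of the probe sets in place of their mean gave -0.34 (adjusted p = 0.0673). Its paralog Atf6b differed by -0.09 ± 0.07, and Xbp1, whose spliced form drives secretory capacity, by -0.06 ± 0.07 with an interval of -0.23 to 0.11. Of 15 measured target genes of Xbp1 and Atf6, 0 passed and 0 had an unadjusted p below 0.05 by limma, the median was -0.03 and 11 were below 0. Hsp90b1, the largest of these differences, was at -0.15 (adjusted p = 0.978).

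The factors of the cyclic AMP and integrated stress responses had small differences. Creb1, the activator phosphorylated after cyclic AMP and T cell receptor signals, differed by -0.09 ± 0.09 over 6 probe sets. Crem, which also makes the inducible repressor ICER, differed by -0.03 ± 0.09 over 4, and Atf2 and Atf7, targets of stress kinases, by 0.00 ± 0.10 and 0.00 ± 0.09. The 95% intervals of these 4 genes all lay between -0.29 and 0.21. They are intervals of the probe set means, and single probe sets disagreed in sign. Those of Atf7 lay at 0.16 and -0.16, and those of Atf2 ranged from -0.09 to 0.09. Among 10 coactivators and kinases of CREB, 0 passed without the block and 1 had an unadjusted p below 0.05, and Crtc3, a coactivator that binds the CREB zipper, passed with it (-0.37 ± 0.11, adjusted p = 0.308 without and 0.0460 with the block). Atf4, the effector of the integrated stress response, differed by 0.05 ± 0.13, and its relative Atf5 by 0.15 ± 0.09. Their 95% intervals were -0.25 to 0.36 and -0.05 to 0.36. Of 14 measured Atf4 target genes 0 passed and 1 had an unadjusted p below 0.05, with a median of 0.04. Slc7a5, the large neutral amino acid transporter among them, had the largest difference, 0.30 ± 0.08 (adjusted p = 0.214), with 0.27, 0.43 and 0.21 in Batf-/- cells, against 0.00, 0.05 and -0.05 in Batf+/+ cells.

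C/EBP factors were mostly below 0, in 4 of 5 members. Cebpa, a factor of granulocyte and macrophage development, had levels of -0.61, -0.29 and -0.17 in Batf-/- cells, against -0.10, 0.30 and 0.00 in Batf+/+ cells. The groups did not overlap and the difference was -0.42 ± 0.14 (SE, limma adjusted p = 0.355, and 0.111 with the block), resting on 1 probe set. With the block and without both arrays numbered 3 it was -0.55 (limma adjusted p = 0.0158), in a fit chosen after seeing the data. Cebpa passed in no other setting that was run. Beside it, the summed level of 7 myeloid markers ranged from -1.11 to 2.09 over Batf-/- arrays and from -0.41 to 0.60 over Batf+/+ arrays, and that of 6 neutrophil markers from -1.20 to 0.15 and from -0.89 to 0.71. The lowest of each, like the lowest Cebpa, was on Batf-/- array 1, as it was for erythroid and NK cell markers. The highest summed myeloid level was on Batf-/- array 3, where Cebpa was at -0.17. The part of these markers in the Cebpa values was not tested. Cebpb, a factor of inflammatory gene expression, had 0.02, -0.49 and -0.61 in Batf-/- cells, against 0.00, 0.15 and -0.62 in Batf+/+ cells. Ddit3, the stress-induced partner known as CHOP, differed by -0.16 ± 0.18, with its probe sets at -0.30 and -0.02, and by -0.03 without Batf-/- array 2 and -0.38 without Batf-/- array 1. Cebpg, a partner of Atf4, differed by -0.12 ± 0.08, and Cebpd by 0.02 ± 0.08.

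Maf, the large Maf factor that supports interleukin 10 and follicular programmes in T cells, had levels of -0.10, -0.54 and -0.14 in Batf-/- cells, against 0.08, 0.00 and -0.13 in Batf+/+ cells. Batf-/- array 2 was the lowest, the groups overlapped, and the difference was -0.24 ± 0.12 (SE, adjusted p = 0.773). Its 6 probe sets disagreed: 4 lay between -0.54 and -0.31, 1 at -0.01 and 1 at 0.19, and 0 of them had groups that did not overlap. The small Maf proteins, which lack an activation domain and pair with cap-n-collar or Bach factors, did not pass either. Maff had 0.72, 0.24 and -1.30 in Batf-/- cells, against 0.00, 0.24 and -0.88 in Batf+/+ cells. Mafk had 0.18, 0.14 and -0.32, against 0.00, 0.09 and -0.56 in Batf+/+ cells, so that it was again lowest on arrays numbered 3. Mafg differed by -0.17 ± 0.12, with -0.16, -0.11 and -0.25 within numbers 1, 2 and 3.

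**Figure D3:**
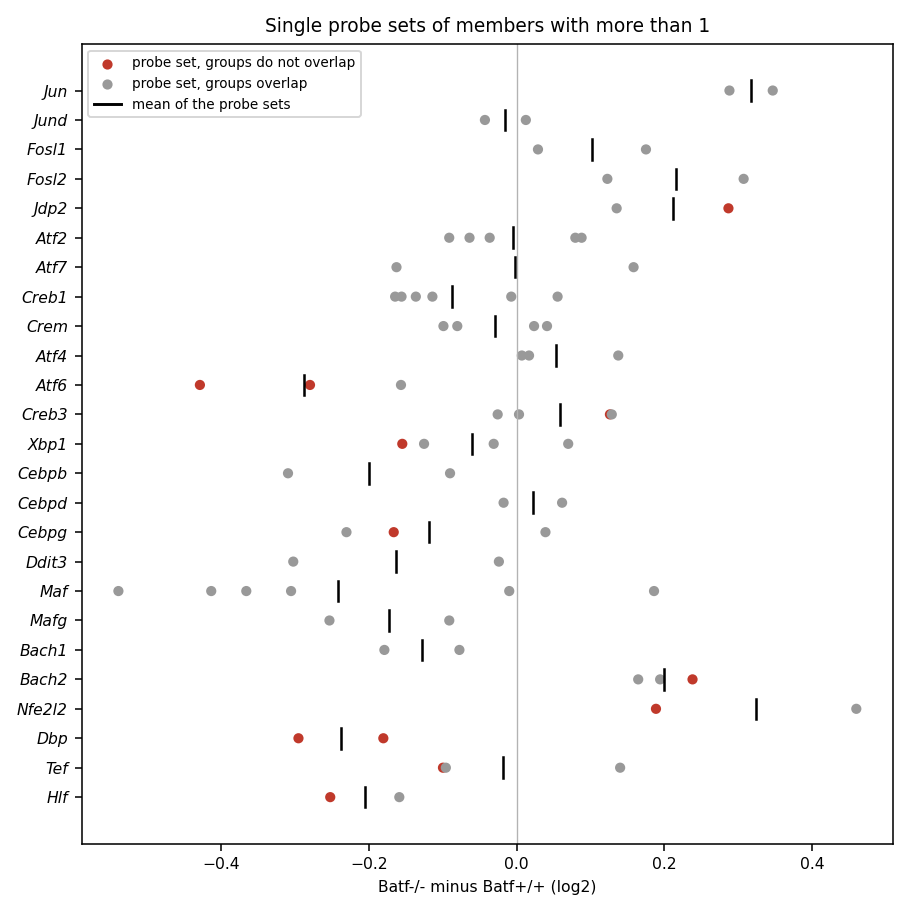
Batf-/- minus Batf+/+ difference (log2) of every probe set of the 25 members with more than 1, with a black bar at their mean. Red points are probe sets whose Batf-/- and Batf+/+ arrays do not overlap and grey points the rest. Both points of Dbp and 2 of the 3 of Atf6 are red and below 0, while the 6 of Maf spread from -0.54 to 0.19.

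Bach2, a repressor that keeps lymphocytes from effector differentiation and supports Treg cells, was higher without overlap in the mean of its probe sets. It had levels of 0.24, 0.29 and 0.07 in Batf-/- cells, against 0.00, 0.02 and -0.02 in Batf+/+ cells, and all 3 of its probe sets were above 0, between 0.16 and 0.24. The groups did not overlap in 1 of the 3. The difference was 0.20 ± 0.08 (SE, 95% interval 0.01 to 0.38, limma adjusted p = 0.574). Bach1, a heme-sensing repressor of antioxidant genes, differed by -0.13 ± 0.10. Nfe2l2, known as NRF2, the main activator of those genes, had 0.37, -0.02 and -0.16 in Batf-/- cells, against 0.02, -0.03 and -0.78 in Batf+/+ cells. Its difference of 0.32 ± 0.21 (adjusted p = 0.908) came with probe sets at 0.19 and 0.46, and the second of these probe sets held the low value of Batf+/+ array 3. Nfe2l1, which restores proteasome genes, and Nfe2, known from megakaryocytes, differed by -0.08 ± 0.08 and 0.02 ± 0.09. Of 10 measured targets of NRF2 and Bach1 0 passed and 0 had an unadjusted p below 0.05, with a median of -0.04 and all differences between -0.14 and 0.10.

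Over 84 probe sets tested singly 0 passed, and 8 had an unadjusted p below 0.05, 9.52% against 6.90% of all probe sets with 1 gene. Groups did not overlap in 13 of them, 15.5% against 11.7%. Of 9 other bZIP genes measured, such as Nrl and Creb3l1, and of 15 measured MAP kinase and phosphatase genes upstream of AP-1, 0 passed, and 0 and 2 of them had an unadjusted p below 0.05. Map2k3, a kinase that activates p38, came nearest among the kinase genes, at -0.33 (adjusted p = 0.0919), with -0.28, -0.25 and -0.35 in Batf-/- cells, against 0.06, 0.04 and 0.00 in Batf+/+ cells. Among the partners of Batf, Irf4 was called higher, at 0.54 ± 0.10 (limma adjusted p = 0.0454). The call was lost with equal array medians and after quantile normalization of the centred values. It was also lost by the median of probe sets and with every probe set tested. Leaving out any 1 array other than Batf-/- array 2 lost it too (adjusted p between 0.0343 and 0.188 without 1 array). The call was kept with the replicate block (adjusted p = 0.0473), with array weights (0.0474) and without probe sets of shared sequence (0.0486). The levels of Irf4 were 0.57, 0.30 and 0.57 in Batf-/- cells, against -0.19, -0.03 and 0.03 in Batf+/+ cells. Irf8 differed by 0.50 ± 0.11 (adjusted p = 0.0919, and 0.0306 with the block), while Batf2 and Batf3 differed by 0.04 ± 0.09 and 0.07 ± 0.09.

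Low values on arrays numbered 3 were found in much of the family and in several lists of genes around it. Array 3 was the lowest of its genotype in both genotypes for 16 of the 37 members, 43.2% against 13.3% of all genes, a count made after the values were seen. The same held for 10 of 15 MAP kinase and phosphatase genes, 5 of 10 CREB coactivators and kinases, 7 of 15 targets of Xbp1 and Atf6, 6 of 13 clock genes and 4 of 14 Atf4 targets. It held for 0 of 10 targets of NRF2 and Bach1, 0 of 9 other bZIP genes and 0 of 5 genes of the BATF family and its Irf partners. Arrays numbered 3 lay at least 0.3 below the mean of numbers 1 and 2 for 11 members, 29.7% against 2.18% of all genes. These 11 were Fosb (-2.19), Maff (-1.39), Nfil3 (-1.16), Atf3 (-1.07), Junb (-0.95), Fos (-0.86), Jun (-0.57), Nfe2l2 (-0.55), Mafk (-0.54), Cebpb (-0.54) and Atf4 (-0.35). After quantile normalization the counts were 17 and 11, and with equal array medians 16 and 11. The spread within genotypes was large for several of the same genes. In 11 members the residual SD was above that of 95% of all genes, with 1.34 for Fosb, 0.87 for Atf3, 0.86 for Maff and 0.69 for Nfil3, beside a median of 0.11 over all genes. Of 12 immediate early and dissociation genes outside the family, 0 passed the genotype test, 2 had an unadjusted p below 0.05, and 5 were lowest on array 3 in both genotypes. The receptor gene Nr4a1, named after its values were seen, had 0.11, -0.04 and -0.87 in Batf-/- cells, against 0.00, 0.08 and -0.91 in Batf+/+ cells. Egr1, also of that list, had -0.04, 0.03 and -0.20 in Batf-/- cells, against 0.00, 0.13 and 0.00 in Batf+/+ cells, so the pattern did not extend to every immediate early gene. Egr2, Egr3 and Ier3 of the same list went the other way and were highest on array 3 in both genotypes. Their arrays numbered 3 lay 0.25, 0.33 and 0.70 above the mean of numbers 1 and 2.

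**Figure D4:**
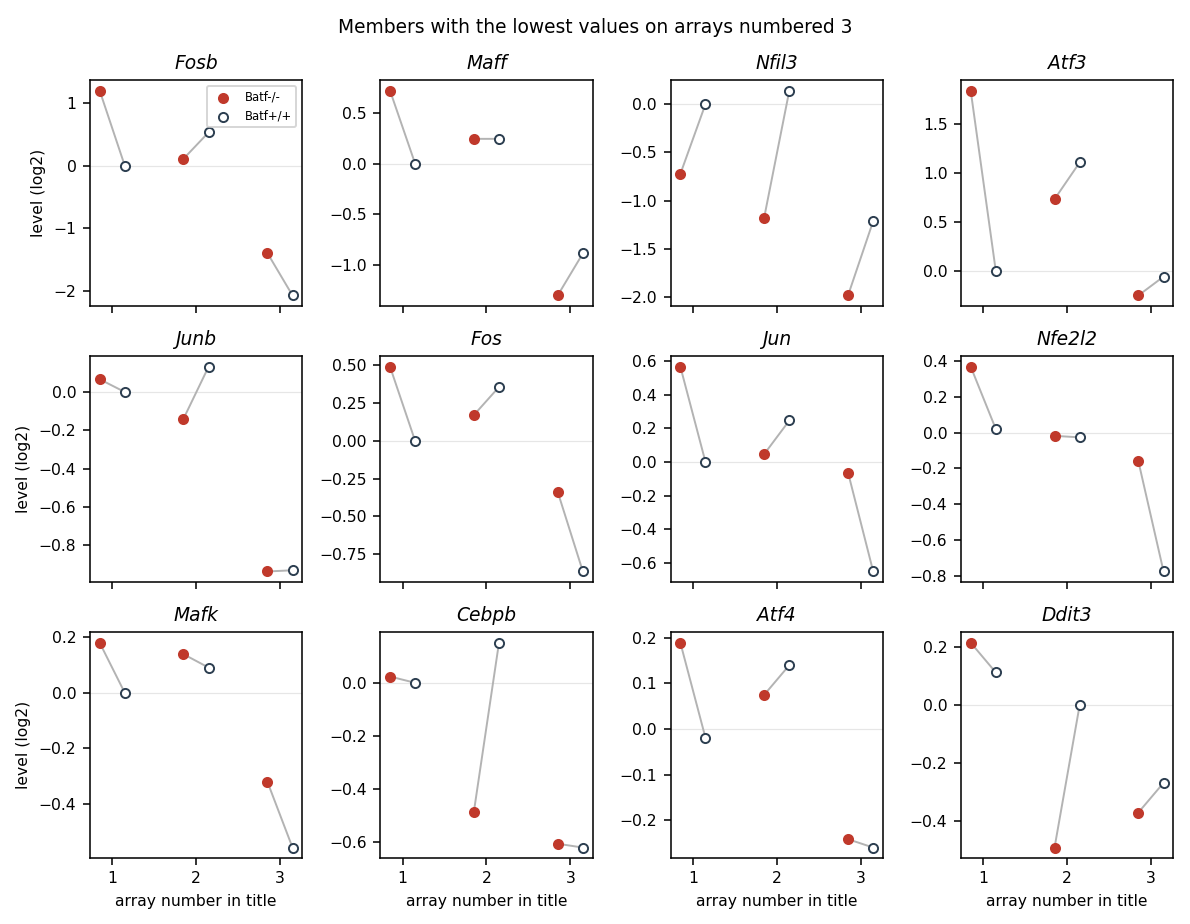
Log2 levels of the 12 members with the lowest values on arrays numbered 3, each panel on its own scale, with the array number on the horizontal axis. Filled red points are Batf-/- and open points Batf+/+, joined within a number. In Nfil3 the red point lies below the open point within every number, while Fosb and Junb change place between numbers.

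**Figure D5:**
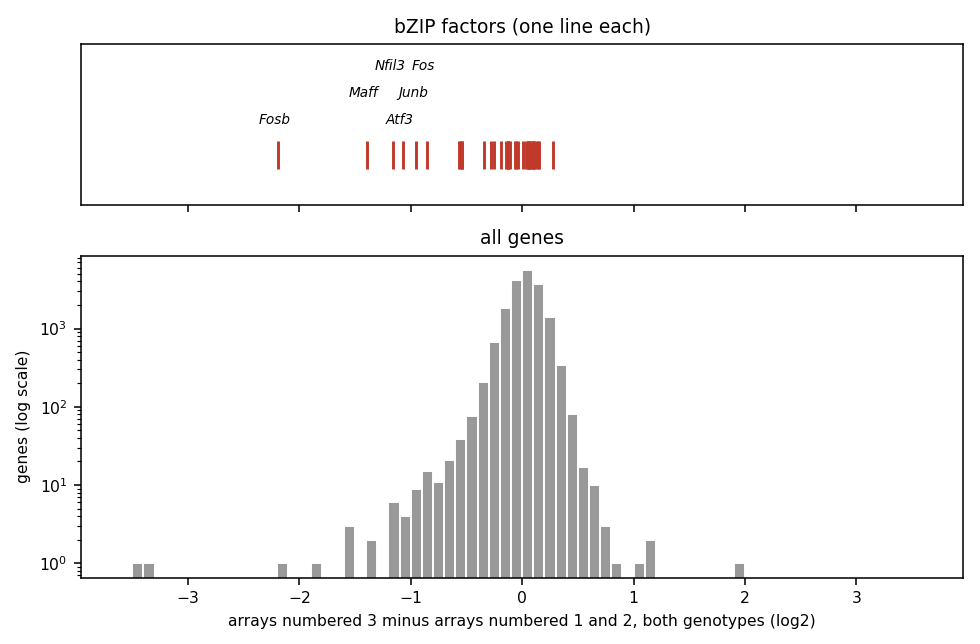
Mean of the 2 arrays numbered 3 minus the mean of the 4 arrays numbered 1 and 2 (log2), for each bZIP factor (red lines, top) and for all 18193 genes (bars, bottom, log scale). Fosb, Maff, Nfil3, Atf3, Junb and Fos lie in the sparse left tail of the distribution.

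The promoters of the 6 members with the largest shift on arrays numbered 3 are shown. They were picked by that shift, which does not show that they moved together across arrays. The shift of Atf3 came with high values on Batf-/- array 1 (1.84) and Batf+/+ array 2 (1.11). Its Batf+/+ arrays 1 and 3 were at 0.00 and -0.05. Each promoter is the 250 bases before the start that RefSeq gives on GRCm38.p6, on the strand of the gene. Capitals mark a cyclic AMP response element, TGACGTCA, or its shorter form TGACGT on either strand.
Fosb (chr7:19310046-19310295, minus strand): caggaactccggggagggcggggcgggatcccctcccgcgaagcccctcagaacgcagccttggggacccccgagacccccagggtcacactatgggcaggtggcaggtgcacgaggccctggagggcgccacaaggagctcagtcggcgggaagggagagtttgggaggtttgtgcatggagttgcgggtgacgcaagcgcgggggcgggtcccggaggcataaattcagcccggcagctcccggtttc
Maff (chr15:79347270-79347519, plus strand): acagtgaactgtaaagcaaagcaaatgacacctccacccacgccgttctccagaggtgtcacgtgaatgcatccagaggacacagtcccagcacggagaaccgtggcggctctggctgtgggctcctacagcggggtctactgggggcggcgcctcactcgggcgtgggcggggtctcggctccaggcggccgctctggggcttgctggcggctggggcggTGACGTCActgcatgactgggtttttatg
Nfil3 (chr13:52981040-52981289, minus strand): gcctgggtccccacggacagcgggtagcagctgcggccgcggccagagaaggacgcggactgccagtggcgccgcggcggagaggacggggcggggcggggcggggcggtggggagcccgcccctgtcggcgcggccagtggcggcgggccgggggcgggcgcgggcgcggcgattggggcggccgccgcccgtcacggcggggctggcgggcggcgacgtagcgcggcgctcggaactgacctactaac
Atf3 (chr1:191183334-191183583, minus strand): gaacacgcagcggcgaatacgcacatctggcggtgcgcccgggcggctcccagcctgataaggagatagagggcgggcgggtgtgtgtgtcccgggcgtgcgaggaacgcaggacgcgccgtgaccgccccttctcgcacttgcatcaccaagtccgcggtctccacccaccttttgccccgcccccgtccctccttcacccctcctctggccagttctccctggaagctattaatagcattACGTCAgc
Junb (chr8:84978749-84978998, minus strand): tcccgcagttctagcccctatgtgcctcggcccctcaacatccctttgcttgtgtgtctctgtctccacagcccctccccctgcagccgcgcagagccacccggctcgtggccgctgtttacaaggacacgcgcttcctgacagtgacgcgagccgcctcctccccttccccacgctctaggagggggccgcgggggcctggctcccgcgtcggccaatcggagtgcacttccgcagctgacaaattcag
Fos (chr12:85473640-85473889, plus strand): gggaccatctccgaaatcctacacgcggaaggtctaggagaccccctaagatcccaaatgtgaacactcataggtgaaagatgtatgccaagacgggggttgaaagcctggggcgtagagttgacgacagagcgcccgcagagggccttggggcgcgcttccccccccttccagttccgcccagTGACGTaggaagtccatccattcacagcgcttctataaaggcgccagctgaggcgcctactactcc
Of the 31 measured members with a promoter entry, in 41 windows since some have several starts, 2 held TGACGTCA, Maff in the window shown, which is 1 of 3, and Hlf. These were 2 of the 41 windows, where the share over all 32851 windows was 1.55%. The shorter TGACGT, which every TGACGTCA also contains, was found in 7 members, Atf3, Fos, Hlf, Jdp2, Maff, Mafg and Nfe2l1. That was 7 of the 41 windows, against 6.47% of all windows. The AP-1 element TGANTCA, which Batf and Jun dimers can bind, was found in Ddit3 alone among these members, in 1 of the 41 windows against 6.75% of all windows. The CArG box of serum response factor was found in 0 members and 1.47% of all windows. Matches lay 66 to 61 bases before the start in Fos, 29 to 22 in Maff and 8 to 3 in Atf3, while the windows of Fosb, Nfil3 and Junb held none of the 4 motifs. A match is a description of these letters and does not show binding.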

How the data were processed

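RNA of 6 Treg samples was measured on 3' expression arrays. The authors deposited values summarised with RMA, as named in the submitters' processing notes. Neither a version nor the log base is stated there, and the deposited values were taken as log2 by assumption. In all 45101 probe sets the median of the Batf+/+ arrays is exactly 0, a centring that no label describes and that leaves differences between genotypes unaltered but removes levels, so dim probe sets could not be left out. Probe sets were named by the platform annotation: 34945 had 1 gene, 932 several, 9160 none listed and 64 were controls. A gene is the mean of its probe sets. Genotypes were compared with limma 3.58.1 (lmFit, eBayes) in R 4.3.3 with genotype as the only term, over 18193 genes, checked on simulated data. The simulated arrays were independent of each other, and changes were planted only in genes of small spread. That check therefore does not bear on correlated arrays or on the members of largest spread. The members and gene lists were chosen with earlier results of these data known, so nothing here is independent support for a pattern seen before. All measured members are named, with Batf and, from each list, its called genes and up to 3 of the largest other differences. The replicate numbers of the titles were taken to pair the arrays, since the deviations of every same-numbered pair correlated above 0.1. Differently numbered arrays were not compared in this way, so the pairing is an assumption of the blocked fit. Promoter sequences are from RefSeq (GRCm38.p6), of which the last 50 bases, beyond the start, were left out. Alternatives covered scaling, probe set choice, array weights, the replicate block and leaving out arrays. Quantile normalization was applied to the centred values and gave all arrays the same distribution. Before it, the SD over all probe sets was 0.12 to 0.17 on Batf+/+ arrays and 0.24 to 0.26 on Batf-/- arrays. The Batf difference went from -2.89 to -2.02 with it. A smaller difference or a lost call under this setting can therefore come from the scaling itself. Scan dates and slides were not used here. The number of arrays limits the precision.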

Additional observations from a re-analysis of the deposited data

How the results depend on the processing

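The 37 members were refitted under 14 settings, 516 values in all (2 members have only probe sets of shared sequence and give none without those). The side of the threshold changed in 1 of them, Nfil3, called with the replicate block; with it 1 member and 1 probe set were lower past the threshold. Further fits with the block, chosen after seeing the data, called 1, 1 and 2 members lower without both arrays numbered 1, 2 or 3, where Cebpa was the 1 added. The sign changed in 41 values of 16 members, all of them uncalled. By setting, these were Atf7 (0.0093) and Nfe2 (-0.0082) after quantile normalization; Xbp1 (0.070) without probe sets of shared sequence; Atf2 (0.080) with every probe set tested, by its probe set with the smallest p; Atf4 (-0.0071), Maff (-0.012) and Tef (0.020) with array weights; and Atf2 (0.011), Crem (0.042), Jund (0.11) and Tef (0.0054) without both arrays numbered 3, a setting chosen after seeing the data. Leaving out each array in turn gave ranges of -0.071 to 0.066 for Atf2, -0.11 to 0.94 for Atf3, -0.053 to 0.18 for Atf4, -0.067 to 0.049 for Atf7, -0.019 to 0.089 for Cebpd, -0.10 to 0.048 for Crem, -0.070 to 0.54 for Fos, -0.29 to 1.17 for Fosb, -0.038 to 0.17 for Fosl1, -0.40 to 0.23 for Junb, -0.15 to 0.090 for Jund, -0.31 to 0.70 for Maff, -0.045 to 0.31 for Mafk, -0.049 to 0.11 for Nfe2 and -0.060 to 0.026 for Tef. Several members kept their sign but moved by over 1.5 times on leaving out 1 array, among them, with the range over all settings, Jun (0.060 to 0.51), Fosl2 (0.066 to 0.31), Atf5 (0.10 to 0.24), Cebpb (-0.43 to -0.046), Ddit3 (-0.38 to -0.026), Maf (-0.41 to -0.10), Mafg (-0.27 to -0.069), Nfe2l2 (0.067 to 0.46) and Hlf (-0.29 to -0.096). The members' median difference lay between -0.094 and 0.0054, above 0 only without both arrays numbered 3. Outside the family the ranges on leaving out 1 array were -0.042 to 0.089 for Batf2, -0.015 to 0.12 for Batf3, -0.19 to 0.012 for Nrl, -0.0044 to 0.17 for Slc48a1, -1.73 to 1.86 for Hspa1a, -1.70 to 1.56 for Hspa1b and -0.31 to 0.31 for Nr4a1. Sign changes there were also Batf2 (-0.0032), Hspa1a (-1.79) and Nr4a1 (-0.083) with array weights, Hspa1a (-0.045) and Nr4a1 (-0.0047) without both arrays numbered 3, and Hspa1b at 0.23 after quantile normalization and 0.074 without probe sets of shared sequence. The causes were not tested.

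Among all genes, 151 were lower and 57 higher; quantile normalization gave 58 and 23, leaving out both arrays numbered 3 gave 94 and 25, the replicate block gave 91 higher, and leaving out 1 array gave 73 to 141 lower and 31 to 51 higher. Of the pathway lists, 1 gene was lower (Batf) and 1 higher (Irf4). Lower genes numbered 2 with the replicate block (with Crtc3), 2 without both arrays numbered 3 (with Bhlhe40) and 1 to 2 without 1 array. Higher genes numbered 0 with equal array medians, after quantile normalization, by the median of probe sets, with every probe set tested and without both arrays numbered 3, 2 with the replicate block (with Irf8), and 0 to 2 without 1 array. A filter on dim probe sets was not run, since centred values give no level, and signal over background is unknown.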

Other observations

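Atf1, a CREB relative with no probe set of its own, shares 1 probe set with a gene named as its pseudogene. That probe set had 0.06, 0.00 and -0.06 on the Batf-/- arrays, against 0.03, 0.00 and -0.04 on the Batf+/+ arrays, a difference of 0.00 that cannot be given to either gene. Ier3, a stress-induced survival gene of the immediate early list, had 0.44, 0.46 and 1.62 in Batf-/- cells, against 0.00, -0.44 and 0.01 in Batf+/+ cells, and was thus highest on a Batf-/- array numbered 3, where Fosb, Maff and Junb were low. Its difference was 0.98 ± 0.29 (SE, n = 3 each, adjusted p = 0.280 by limma). Egr2, a factor induced by T cell receptor signals and a brake on T cell activation, had -0.53, -0.35 and -0.09 in Batf-/- cells, against 0.05, -0.12 and 0.11 in Batf+/+ cells (adjusted p = 0.424). Sik1, a kinase that holds CREB coactivators in the cytoplasm, had 0.62, 0.38 and -0.05 in Batf-/- cells, against 0.06, 0.10 and -0.96 in Batf+/+ cells, higher within each number by 0.57, 0.27 and 0.90 (adjusted p = 0.721, and 0.0882 with the replicate block).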
